A study of Mus musculus with 6 samples.

Results

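The 10 genes described here encode secreted proteins of the extracellular matrix that are not collagens, together with helpers of collagen assembly: *Fn1*, *Sparc*, *Postn*, *Dcn*, *Lum*, *Fstl1*, *Fbn1*, *Fbln1*, *Serpinh1* and *Pcolce*. A member was taken as a probe set (the group of probes summarized to 1 value) that the platform annotation ties to exactly 1 gene, the gene being on this list. That gave 9 probe sets for 9 of the 10 genes, of 28944 probe sets on the array and 19938 genes tested; *Fbn1* was not analysed here. Starry-sky tumor-associated macrophages (SS-TAMs) were cut by laser from frozen xenografts of BL2 cells, an established human line of Burkitt's lymphoma, placed under the skin of female BALB/c SCID mice until the tumor measured 1.44 cm2. The cells were chosen by CD68 staining. Germinal center macrophages (GCMs), which engulf dying B cells in the normal follicle, were cut from female CSF1R EGFP transgenic BALB/c mice immunized 2 times with sheep red blood cells. That transgene is a green fluorescent reporter of the CSF1 receptor promoter, which is active in macrophages and other myeloid cells. Each group held 3 mice aged 6 to 12 weeks, with 1000 cells and 1 Affymetrix Mouse Gene 1.0 array per mouse. SCID hosts lack mature T and B cells. For the GCM mice the labels disagree on the organ, giving spleen in one field and lymph nodes in another. The values are linear intensities, with a median of 6.1 to 6.5 on the 6 arrays. The bright ends of the groups were not alike. The brightest 1% of values began at 241.5 to 283.7 on the SS-TAM arrays and at 613.8 to 663.8 on the GCM arrays. Detection was not called, so where a group lay near 6.3, the median of all values, a fold is no more than a lower bound.

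Fibronectin is laid down as fibrils by cells that hold it through integrins, and other matrix proteins are deposited on that network. SPARC and periostin are matricellular proteins, which sit in the matrix and change how cells attach to it or how collagen is organized, while decorin and lumican coat collagen fibrils. Fibroblasts and pericytes are the usual main source of most of these proteins in connective tissue and tumors, and macrophages are known to make fibronectin and SPARC.

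Of the 9 measured genes, 4 were higher in SS-TAMs and none was lower: *Postn*, *Fn1*, *Sparc* and *Fstl1*. *Lum* and *Pcolce* had no overlap between the groups but did not pass the test, and *Dcn*, *Fbln1* and *Serpinh1* overlapped. The threshold was an adjusted p (Benjamini-Hochberg, limma, all genes) under 0.05, at which 9.9% of all genes were called, 5.16% higher and 4.74% lower. All 3 SS-TAM arrays lay above all 3 GCM arrays for 6 of the 9 genes, against 18.5% of all genes. At an unadjusted p under 0.05 limma counted 6 of the 9 higher and 0 lower, against 15.2% of all genes higher and 10.4% lower. The 9 had a median log2 fold change, SS-TAM over GCM, of 1.30, against 0.04 over all genes. Captured tissue is a mixture, and more cells of a type or more RNA per cell cannot be told apart in such samples.

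**Figure D1:**
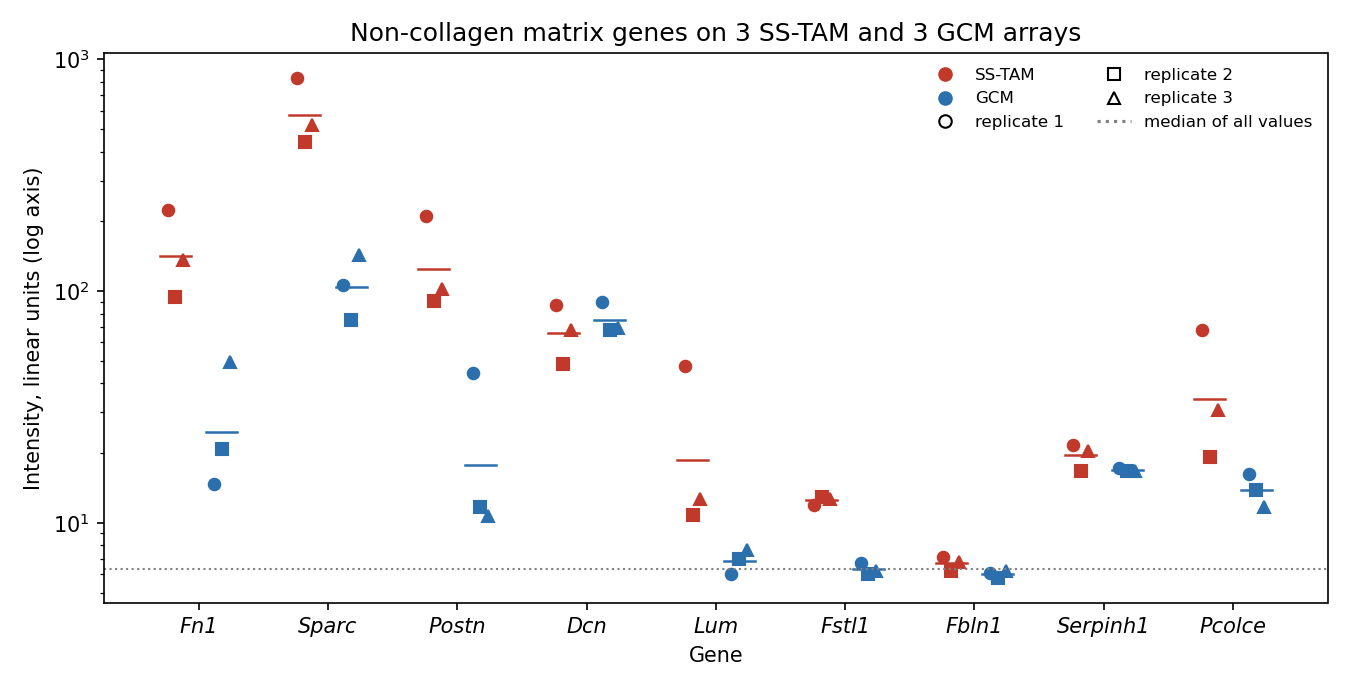
Intensity in linear units (log axis) of 9 matrix genes; each point is 1 array, red for SS-TAM and blue for GCM, with the replicate number given by the symbol, each bar the geometric mean of a group and the dotted line the median of all values (6.3). *Sparc* lay between 439.9 and 831 in SS-TAMs and between 74.7 and 142.7 in GCMs, whereas the points of *Dcn* overlap.

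*Fn1*, which encodes fibronectin, was at 223.9, 94.6 and 135.5 in SS-TAM replicates 1, 2 and 3 and at 14.7, 20.9 and 49.3 in GCM replicates 1, 2 and 3. Every SS-TAM array was above every GCM array, and the lowest SS-TAM value was 1.92 times the highest GCM value. The spread within GCMs was 3.35-fold, wider than the 2.37-fold spread within SS-TAMs. The log2 fold change was 2.52 (standard error 0.52, 95% interval 1.24 to 3.80, adjusted p = 0.037 from limma), a 5.74-fold difference. The study had also picked *Fn1* for a table of genes from these arrays, so this is not independent evidence of its direction. The call held without GCM replicate 3 (adjusted p = 0.033) and was lost without any other single array, with adjusted p from 0.066 without SS-TAM replicate 2 to 0.14 without GCM replicate 2, while the log2 fold change stayed between 2.15 and 3.02.

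*Postn* encodes periostin, which binds fibronectin and collagen and is typical of activated fibroblasts. Its intensities were 210.1, 90.6 and 101.7 in SS-TAMs and 44.3, 11.7 and 10.7 in GCMs. GCM replicate 1 stood apart, at 4.14 times the lowest GCM array, yet remained below the lowest SS-TAM array. With a log2 fold change of 2.82 (standard error 0.63, 95% interval 1.27 to 4.36, adjusted p = 0.047 from limma), *Postn* had the largest estimate among the 9 genes and held rank 22 among the increases of all genes. Leaving out GCM replicate 1 gave 3.48 (adjusted p = 0.019), and the call was lost without any other single array, with adjusted p from 0.094 without SS-TAM replicate 2 to 0.17 without GCM replicate 2. All 10 measured B cell markers were also highest on GCM replicate 1 among the GCM arrays. So were 9 of 17 endothelial markers and 4 of 24 fibroblast and pericyte markers. The same held for 41.6% of 3995 genes with a mean intensity of at least 2 times the median. Any part of other cells in this *Postn* value was not tested.

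*Sparc* encodes a calcium-binding matricellular protein that binds collagen and is cleared by the receptor stabilin-1. It was at 831, 439.9 and 523.2 in SS-TAMs, against 105.8, 74.7 and 142.7 in GCMs. The groups were well separated, with the lowest SS-TAM array at 3.08 times the highest GCM array, and *Sparc* was far above the median of all values in both groups. The difference was 5.54-fold (log2 fold change 2.47, standard error 0.32, 95% interval 1.68 to 3.25, adjusted p = 0.0093 from limma). Unlike the calls of *Fn1* and *Postn*, that of *Sparc* held without each of the 6 arrays in turn, with adjusted p from 0.026 to 0.043 and a log2 fold change between 2.20 and 2.70. It was lost only when values were floored at the median intensity before log2 (limma adjusted p = 0.051). That floor left the *Sparc* log2 fold change at 2.47, so only its adjusted p changed.

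*Fstl1* encodes follistatin-like 1, a secreted glycoprotein of the SPARC family. Its intensities were 11.9, 12.9 and 12.7 in SS-TAMs and 6.7, 6.0 and 6.2 in GCMs. The replicates lay close together in both groups, and the GCM mean of 6.30 equalled the median of all values, so the 1.99-fold difference is no more than a lower bound. This was the smallest of the 4 called changes and the one with the smallest error (0.99 on the log2 scale with a standard error of 0.067, limma adjusted p = 0.0015). The call held without each array in turn (adjusted p up to 0.0135). Its sign depended on the scaling. Relative to the core macrophage markers *Fstl1* had a log2 value of -0.30, where the median of all genes moved to -1.25. That scaling lowers every log2 fold change by the same amount, so the larger changes of *Fn1*, *Postn* and *Sparc* stayed positive.

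**Figure D2:**
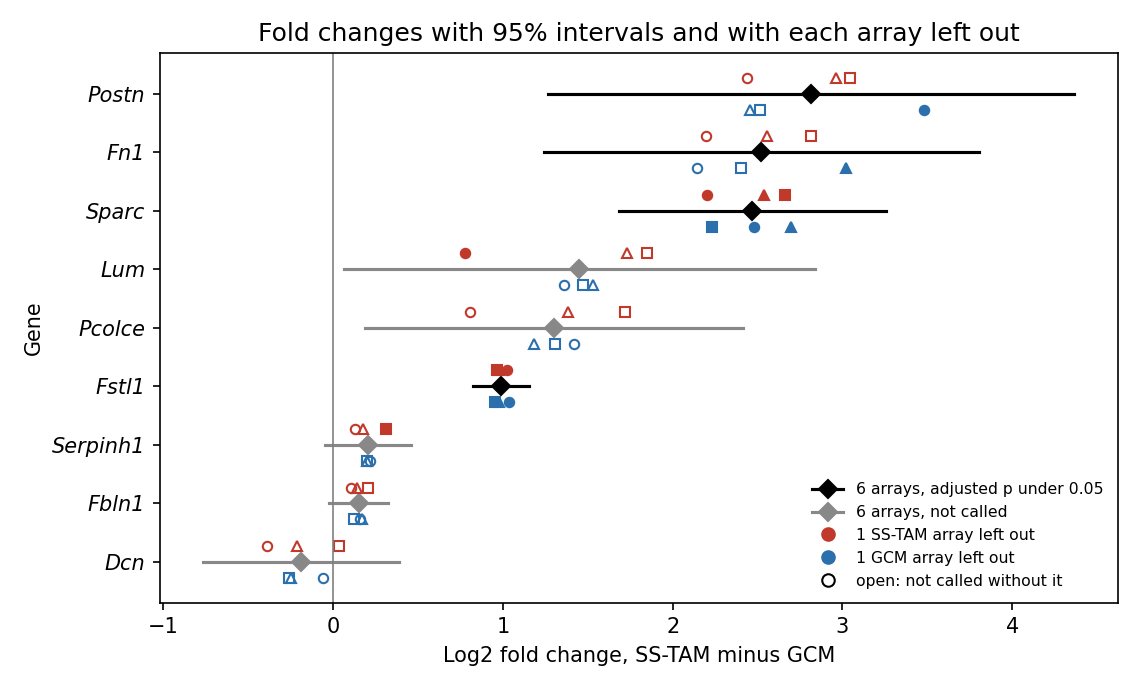
Log2 fold changes, SS-TAM over GCM, for 9 matrix genes; diamonds and lines are the fit to 6 arrays with its 95% interval (black where called, grey where not), and small points leave out 1 SS-TAM array (red) or 1 GCM array (blue), open where the gene is then not called. All points of *Sparc* and *Fstl1* are filled, whereas for *Fn1* and *Postn* 1 of 6 is.

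The DNA ahead of 4 of these genes is shown to set 3 called members beside *Serpinh1*, whose groups overlapped. Of the 9 measured genes, 6 had an entry in the RefSeq promoter table (GRCm38.p6), with *Fn1*, *Dcn* and *Lum* not among them. Each line gives the 250 bases before an annotated start, read 5′ to 3′ on the strand of the gene. Capitals mark matches, on either strand, to the TATA box letters TATAAA, to the CCAAT box, whose letters are its name, to the GC box letters GGGCGG and to the AP-1 site letters TGANTCA; no matches overlapped. *Sparc* is read from chr11:55420081-55420330 on the minus strand, *Fstl1* from chr16:37776805-37777054 on the plus strand, and *Serpinh1* from chr7:99353240-99353489 on the minus strand. *Postn* is read from chr3:54360857-54361106 on the plus strand, ahead of the annotated start that lies inside its outermost transcript.
Sparc: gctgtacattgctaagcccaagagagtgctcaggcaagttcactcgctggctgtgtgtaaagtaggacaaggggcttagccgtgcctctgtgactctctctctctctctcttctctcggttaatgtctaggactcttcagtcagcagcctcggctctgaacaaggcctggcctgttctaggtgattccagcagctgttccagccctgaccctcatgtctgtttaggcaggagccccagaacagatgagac
Postn: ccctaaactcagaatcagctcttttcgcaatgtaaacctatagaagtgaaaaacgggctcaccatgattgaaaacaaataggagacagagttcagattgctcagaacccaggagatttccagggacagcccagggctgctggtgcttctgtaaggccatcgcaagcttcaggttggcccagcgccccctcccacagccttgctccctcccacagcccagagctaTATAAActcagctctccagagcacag
Fstl1: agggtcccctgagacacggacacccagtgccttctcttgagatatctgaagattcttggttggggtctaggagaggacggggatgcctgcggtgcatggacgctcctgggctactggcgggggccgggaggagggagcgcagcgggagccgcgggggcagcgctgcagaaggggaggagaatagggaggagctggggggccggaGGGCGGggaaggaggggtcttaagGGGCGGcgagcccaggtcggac
Serpinh1: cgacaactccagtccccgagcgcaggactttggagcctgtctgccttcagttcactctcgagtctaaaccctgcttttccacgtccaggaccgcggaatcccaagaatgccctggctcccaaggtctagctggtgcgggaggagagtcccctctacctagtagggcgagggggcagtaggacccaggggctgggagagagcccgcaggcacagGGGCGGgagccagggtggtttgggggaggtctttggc
The *Sparc* window held none of these motifs. *Postn* held the TATA box letters from 26 to 21 bases before this start and none of the motifs before its outermost start. *Fstl1* held the GC box letters at 2 places, and *Serpinh1* held it at 1 place, from 37 to 32 bases before the start. Among 32851 windows of the same length, the TATA box letters were found in 12.4%, those of the CCAAT box in 33.8%, of the GC box in 32.7% and of the AP-1 site in 6.75%. GC content was 68.0% for *Fstl1* and 63.6% for *Serpinh1*, and 54.0% and 52.0% for *Sparc* and *Postn*. A match is a description of the letters, and the same motif stood before a called gene and before one whose groups overlapped.

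*Dcn* and *Lum* encode decorin and lumican, small leucine-rich proteoglycans that bind collagen fibrils and regulate their width and spacing. *Dcn* was at 87.4, 48.4 and 68.0 in SS-TAMs and 90.1, 68.0 and 69.6 in GCMs. The groups covered much the same range, with a log2 fold change of -0.19 (95% interval -0.77 to 0.39, adjusted p = 0.63 from limma). Its upper bound lay below the lower bounds of *Fn1*, *Postn* and *Sparc*. *Lum* was at 47.6, 10.8 and 12.7 in SS-TAMs and 6.0, 7.0 and 7.6 in GCMs. SS-TAM replicate 1 was 3.75 times the higher of the other SS-TAM arrays. The lowest SS-TAM array was 1.42 times the highest GCM array. The GCM mean of 6.87 was close to the median of all values. For *Lum* the estimate was 1.45 on the log2 scale with a standard error of 0.57 (limma adjusted p = 0.18). Without SS-TAM replicate 1 it was 0.78, and this smaller difference passed the test (adjusted p = 0.042).

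*Fbln1* encodes fibulin-1, which binds fibronectin and basement membrane proteins. It was at 7.1, 6.2 and 6.8 in SS-TAMs and 6.1, 5.8 and 6.2 in GCMs, around the median of all values on every array. The log2 fold change was 0.15 (adjusted p = 0.25 from limma), and levels this low allow no statement on whether the gene was expressed.

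The products of *Serpinh1* and *Pcolce* act on collagen. HSP47, encoded by *Serpinh1*, is a chaperone of procollagen in the endoplasmic reticulum, and the *Pcolce* product enhances removal of the procollagen C-propeptide outside the cell. *Serpinh1* was at 21.7, 16.8 and 20.4 in SS-TAMs and 17.2, 16.8 and 16.8 in GCMs. The groups met at 16.8, the GCM arrays differed by 1.02-fold, and the log2 fold change was 0.21 (95% interval -0.05 to 0.46, adjusted p = 0.27 from limma). Without SS-TAM replicate 2 it was 0.31 and passed (adjusted p = 0.034). *Pcolce* was at 67.7, 19.2 and 30.6 in SS-TAMs and 16.3, 13.9 and 11.7 in GCMs. The lowest SS-TAM array was 1.18 times the highest GCM array, and SS-TAM replicate 1 was 2.21 times the next. For *Pcolce* the estimate was 1.30 on the log2 scale with a standard error of 0.45 (limma adjusted p = 0.14), and no single array, when left out, brought it past the threshold.

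The members differed in how their SS-TAM replicates were spread. SS-TAM replicate 1 was the highest SS-TAM array for 8 of the 9 genes, *Fstl1* being the exception; among 3995 genes with a mean intensity of at least 2 times the median, it was the highest for 39.7%. On the log2 scale it exceeded the mean of the other SS-TAM arrays by 2.02 for *Lum*, 1.48 for *Pcolce*, 1.13 for *Postn*, 0.98 for *Fn1* and 0.79 for *Sparc*, and was 0.11 below it for *Fstl1*. Summed over the 9 genes, intensity was 1508, 739.4 and 911.6 in SS-TAMs and 307.2, 224.8 and 320.8 in GCMs. The other SS-TAM arrays thus remained above every GCM array in this sum. Without SS-TAM replicate 1, 3 of the 9 genes were called higher, namely *Sparc*, *Fstl1* and *Lum*. Without SS-TAM replicate 3 or GCM replicate 2 the called genes were *Sparc* and *Fstl1*, 2 of 9.

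Likeness between patterns was measured as the root mean square difference in log2 intensity over the 6 arrays, each gene centred on its own mean. *Fn1* and *Sparc* differed by 0.41, and *Lum* and *Pcolce* by 0.33. The closest pair, *Fbln1* and *Serpinh1* at 0.067, shared a nearly flat profile, and the most distant pair was *Postn* and *Dcn* at 1.61. Among 3661 genes at least 1 log2 unit above the median gene, those nearest to *Sparc* were the cathepsin genes *Ctsd* (0.13) and *Ctsl* (0.18), which encode lysosomal proteases, and the complement gene *C1qb* (0.16). For *Fn1* they were *Lipa* (0.37), the gene of lysosomal acid lipase, *Sparc* (0.41) and *Plin2* (0.44), which encodes a lipid droplet coat protein. These distances are dominated by the difference between the groups and describe 6 arrays only.

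Genes that act with the members were followed in lists chosen by function. Across 7 such lists, 23 of 128 measured genes were higher and 5 lower, against 5.16% and 4.74% of all genes. The same shares apply to the calls in each list and marker list below. The median log2 fold change was 0.18, against 0.04 over all genes. Scaling to the core macrophage markers lowers every log2 fold change by the same amount, so the 5 lower genes could only stay negative. Of the 23, 10 kept a positive value and 13, those with the smaller changes, turned negative. Without any 1 array in turn, 3 of the 23 (*Dab2*, *Lrp1* and *Mrc1*) and 2 of the 5 (*Itga4* and *Vtn*) kept their call every time. The counts without GCM replicate 1, 2 or 3 were 5, 3 and 3 higher and 3, 4 and 2 lower, and without SS-TAM replicate 3 there were 2 lower.

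Of 17 receptors and assembly factors of fibronectin, 4 were higher and 1 lower. *Dab2*, an endocytic adaptor that takes up integrins, was at 68.8, 35.8 and 41.0 in SS-TAMs and 10.3, 8.1 and 8.3 in GCMs (limma adjusted p = 0.0055). *Itgb5*, an integrin subunit that binds vitronectin with its alpha v partner, *Tgm2*, a crosslinking transglutaminase, and *Sdc4*, a heparan sulfate coreceptor, were also higher, by 0.67, 0.53 and 0.51 on the log2 scale; relative to the core macrophage markers all 3 turned negative. *Itga4*, the alpha subunit of a fibronectin and VCAM-1 receptor of leukocytes, was lower (log2 fold change -1.53, adjusted p = 0.0046 from limma), at 19.2, 17.7 and 25.2 in SS-TAMs against 56.1, 54.2 and 67.3 in GCMs. The brightest gene not called was *Itgb1*, the beta subunit shared by the main fibronectin receptors, at 146.1, 48.8 and 100.1 in SS-TAMs and 42.7, 48.2 and 48.6 in GCMs (adjusted p = 0.20 from limma). Its SS-TAM replicate 2 was only just above the highest GCM array.

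Among relatives of SPARC and other matricellular genes, 2 of 28 were higher and 1 lower, against 5.16% and 4.74% of all genes. All SS-TAM arrays lay above all GCM arrays for 14 of the 28, against 18.5% of all genes, and 12 were higher and 2 lower at an unadjusted p under 0.05, against 15.2% and 10.4%. The median of the list was 0.17 on the log2 scale. *Ccn2*, also called connective tissue growth factor, and the tenascin gene *Tnn* had log2 fold changes of 0.58 and 0.35, both negative relative to the core macrophage markers, and *Vtn*, the gene of vitronectin, fell by 0.80. *Tgfbi*, a relative of *Postn* with the same type of domains, overlapped between the groups (-0.14 on the log2 scale, limma adjusted p = 0.75).

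Of 13 small leucine-rich proteoglycan genes, 1 was higher and 3 were lower. *Aspn*, the gene of asporin, a close relative of decorin, was at 19.6, 12.0 and 12.4 in SS-TAMs and 4.7, 6.8 and 6.1 in GCMs (log2 fold change 1.30, adjusted p = 0.025 from limma). Relative to the core macrophage markers its log2 value was 0.01. *Prelp* and *Fmod*, which bind collagen and other matrix proteins, fell by 0.94 and 0.69 on the log2 scale, and *Nyx*, known from the retina, fell by 0.66. *Bgn*, the gene of biglycan, was the brightest not called, at 122.3, 45.9 and 63.6 in SS-TAMs and 49.0, 29.3 and 46.1 in GCMs (adjusted p = 0.26 from limma). Its SS-TAM replicate 1 was the highest array, its SS-TAM replicate 2 lay inside the GCM range and its SS-TAM replicate 3 above it.

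For fibrillin microfibrils, fibulins and elastic fibres, 4 of 23 genes were higher and 0 lower by limma (9 higher and 0 lower at an unadjusted p under 0.05, where 15.2% of all genes were higher). *Mfap5*, a glycoprotein of microfibrils, was at 54.1, 22.5 and 29.7 in SS-TAMs and 8.1, 6.7 and 8.3 in GCMs (log2 fold change 2.11, adjusted p = 0.015 from limma). *Fbln2*, the gene of fibulin-2, differed by 1.12 on the log2 scale and *Emilin2*, a microfibril-associated glycoprotein, of 0.71, both negative relative to the core macrophage markers. *Fbln2* stood at 31.6, 18.3 and 17.0 in SS-TAMs and 9.8, 9.4 and 10.3 in GCMs, while *Fbln1* overlapped. *Mfap3* was the brightest not called (log2 fold change 0.11, adjusted p = 0.71 from limma).

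In the collagen modification and processing list, 8 of 24 genes were higher and 0 lower by limma (10 higher and 0 lower at an unadjusted p under 0.05, where 15.2% of all genes were higher). The 8 became 2 without GCM replicate 1, 0 without GCM replicate 2 or 3, 0 with values floored at the median and 0 relative to the core macrophage markers. *Crtap*, a partner of prolyl 3-hydroxylase, was at 33.2, 18.7 and 17.0 in SS-TAMs and 8.1, 6.3 and 6.6 in GCMs (log2 fold change 1.66, adjusted p = 0.019 from limma). *Plod1*, a lysyl hydroxylase, and *P4ha1*, the catalytic subunit of prolyl 4-hydroxylase, followed at 1.44 and 1.41. *P4ha1* ran from 30.9 to 52.8 in SS-TAMs and from 13.2 to 16.9 in GCMs. *Ppib*, a collagen chaperone that works with CRTAP, was at 115.1, 82.7 and 108.7 in SS-TAMs and 114.7, 108.7 and 154.1 in GCMs (adjusted p = 0.35 from limma). Calls were mixed within this list. Named after their values were seen, *P4hb* was higher (log2 fold change 1.29, limma adjusted p = 0.035), whereas *Plod2* and *Plod3* were not called (-0.11 and 0.63, limma adjusted p = 0.56 and 0.083). The member *Serpinh1* was not called either, and differences between these genes were not tested.

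Basement membrane glycoproteins gave no call in 14 measured genes by limma (2 higher and 0 lower at an unadjusted p under 0.05), and 2 of 14 is near the 15.2% of all genes higher at that threshold. The brightest, the laminin gene *Lamc1*, was at 37.4, 16.4 and 17.9 in SS-TAMs and 13.7, 11.4 and 10.8 in GCMs (log2 fold change 0.90, adjusted p = 0.15 from limma). Of 9 receptors that take up matrix proteins or their fragments, 4 were higher and 0 lower by limma (1 lower at an unadjusted p under 0.05). *Mrc1*, the mannose receptor, which also takes up collagen, *Lrp1*, an endocytic receptor, and *Cd36*, a thrombospondin receptor, had log2 fold changes of 5.26, 3.07 and 2.56. *Mrc1* was at 336.0, 218.6 and 198.3 in SS-TAMs and 6.9, 5.8 and 6.5 in GCMs, so its GCM level was at the median of all values. *Stab1*, which encodes the SPARC receptor stabilin-1 and was named after its values were seen, was at 13.3, 10.9 and 9.2 in SS-TAMs and 9.4 in each GCM array (limma adjusted p = 0.33). The brightest not called was *Cd44*, the hyaluronan receptor (log2 fold change 0.11, adjusted p = 0.41 from limma).

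**Figure D3:**
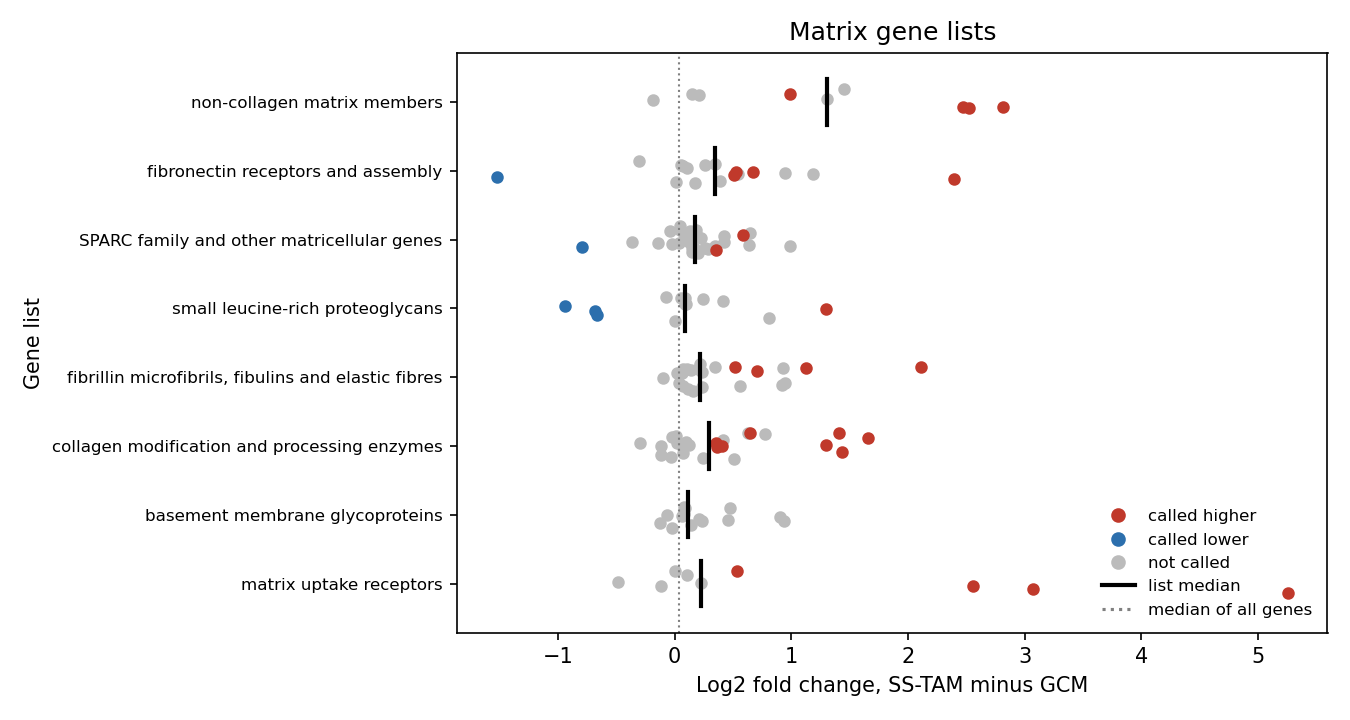
Log2 fold changes, SS-TAM over GCM, for the 9 matrix genes and 7 lists of related genes; each point is 1 gene (red called higher, blue called lower, grey not called), black ticks are list medians and the dotted line is the median of all genes. The 9 genes have a median of 1.30 and the 7 lists medians between 0.08 and 0.35.

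Markers of cells that commonly make these proteins were measured on the same arrays. Of 24 fibroblast and pericyte markers, none of them a member, 4 were higher and 1 (*Vtn*) lower. *Col1a2*, a chain of type I collagen, was at 36.7, 23.9 and 21.4 in SS-TAMs and 12.0, 11.9 and 12.0 in GCMs (log2 fold change 1.15, adjusted p = 0.023 from limma). *Prrx1*, a mesenchymal transcription factor, and *Pdgfrb*, a receptor of pericytes, had log2 fold changes of 0.71 and 0.66, and *Pdgfrb* was between 7.0 and 9.4 in SS-TAMs and between 4.9 and 5.7 in GCMs, near the median of all values. The fourth was the collagen gene *Col5a1*, named after its values were seen. The list had a median of 0.17 on the log2 scale, against 0.04 over all genes. The brightest markers of the list, *Thy1* and *Dpt*, had log2 fold changes of -0.23 and -0.45 (adjusted p = 0.67 and 0.32 from limma); *Thy1* also marks mouse T cells. The arrays did not overlap for 8 of the 24 with SS-TAM higher and for 3 with SS-TAM lower, against 18.5% and 11.5% of all genes. Named after their values were seen, *Col1a1* was at 62.4, 27.2 and 29.2 in SS-TAMs and averaged 16.4 ± 2.12 in GCMs (SD, n = 3, limma adjusted p = 0.088), and *Col3a1* and *Twist1* had log2 fold changes of 1.06 and 1.04, with no overlap and no call. The pericyte marker *Rgs5* had -0.95, with no overlap and no call. Summed intensity was 415.0 to 596.7 in SS-TAMs and 445.0 to 506.5 in GCMs, and without *Thy1* it was 300.6 to 405.9 in SS-TAMs and 303.6 to 331.0 in GCMs. SS-TAM replicate 1 had the highest sum of all arrays either way, as it did for the 9 matrix genes. Of the 24 markers, 14 had means below 2 times the median of all values in both groups. The part of these cells in the matrix values was not tested.

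Core macrophage markers summed to 3110, 2449 and 3099 in SS-TAMs and 1265, 1225 and 1380 in GCMs, with 11 of 19 higher and 0 lower by limma (12 higher and 0 lower at an unadjusted p under 0.05). These markers ran from -0.28 to 4.07 on the log2 scale, and several, such as *Cd14* and *Itgam*, were near or below the median of all values in both groups. Of the 19, 3 had a larger log2 fold change than *Fn1* and *Sparc* (*Adgre1*, *Mertk* and *C1qb*) and 2 a larger one than *Postn*. Relative to the mean of the 19 markers, *Fn1*, *Postn* and *Sparc* were at 1.23, 1.53 and 1.18 on the log2 scale (adjusted p = 0.0074, 0.0063 and 0.00025 from limma). That mean includes the markers that were not called, and the shift is the same for every gene. The positive values therefore show only that these changes exceeded the mean change of the 19 markers. On that scale 127 genes were called higher and 19517 lower, so the adjustment was slight. These adjusted p values therefore cannot be compared with those of the main fit. *Dcn*, *Fbln1* and *Serpinh1* were lower on that scale, at -1.48, -1.14 and -1.08, against -1.25 for the median of all genes. Of 17 endothelial markers 1, *Robo4*, was higher, against 5.16% of all genes. The brightest endothelial markers, *Pecam1* and *Plvap*, had log2 fold changes of -0.67 and 0.07 without a call. The list summed to 130.1 to 136.5 in SS-TAMs and 124.4 to 145.1 in GCMs. Of 10 follicular dendritic cell and splenic stroma markers, 1 was higher and 3 were lower. Their sums were 461.2 to 620.1 in SS-TAMs and 347.6 to 587.2 in GCMs. Platelets store fibronectin and SPARC, and of 7 megakaryocyte and platelet markers 1, *Pf4*, was higher, at 13.5, 14.0 and 12.3 in SS-TAMs and 5.0, 5.0 and 4.2 in GCMs; *Treml1*, the brightest of the list, was not called (0.33 on the log2 scale, limma adjusted p = 0.18). That list summed to 63.1 to 70.8 in SS-TAMs and 46.8 to 49.3 in GCMs, and 5 of the 7 were below 2 times the median in both groups. Of 7 adipocyte markers, *Cidec* and *Fabp4*, named after their values were seen, were higher, and *Fabp4* is also made by macrophages and endothelium. The adipocyte list summed to 166.7 to 188.0 in SS-TAMs and 62.7 to 84.1 in GCMs. The part of these cell types in the matrix values was not tested.

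Lymphoid markers ran the other way. Of 13 T cell markers 8 were lower, and the list summed to 151.6 to 182.0 in SS-TAMs and 1143 to 1525 in GCMs, and 2 of 10 B cell markers were lower, *Cd79a* and *Ms4a1*, named after their values were seen, with sums of 97.3 to 112.0 in SS-TAMs and 146.0 to 359.7 in GCMs. The SCID hosts lack mature T and B cells, and the lymphoma cells are human whereas the array is of mouse genes. These sums therefore give no measure of lymphoma RNA in the SS-TAM captures. The part of lymphocyte RNA in the GCM values of the matrix genes was not tested. Nor was that of human lymphoma RNA in the SS-TAM values.

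**Figure D4:**
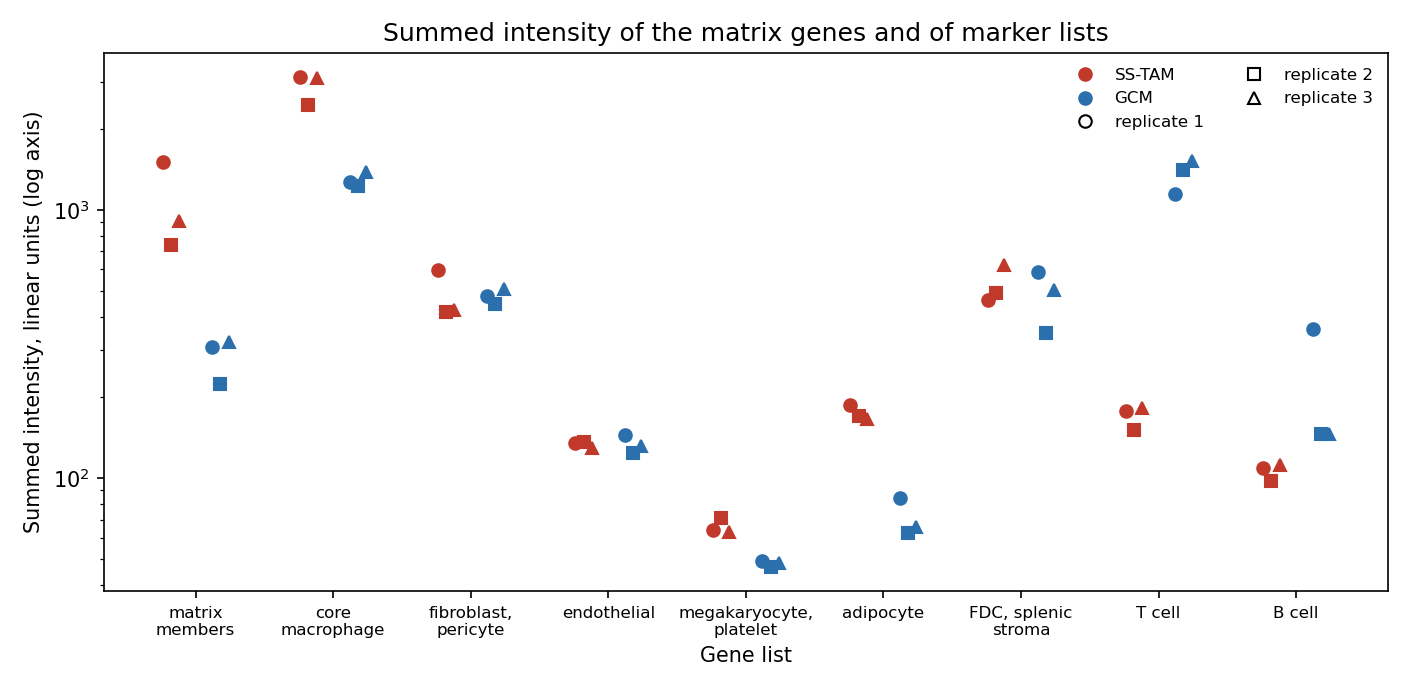
Summed intensity in linear units (log axis) of the 9 matrix genes and of 8 marker lists; each point is 1 array, red for SS-TAM and blue for GCM, with the replicate number given by the symbol (FDC, follicular dendritic cell). The matrix genes lie at 739.4 to 1508 in SS-TAMs and 224.8 to 320.8 in GCMs. The fibroblast and pericyte sums overlap, with or without their brightest marker, *Thy1*, which also marks mouse T cells.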

How the data were processed

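Laser-captured macrophages from 3 SS-TAM and 3 GCM mice were profiled on 1 array each. The authors deposited probe set intensity values on a linear scale with 1 decimal (2.4 to 2543.6); RMA and limma are listed in the submitters' notes, with no version, settings or genome build given. The table was linear, so log2 was taken before the tests. Of 28944 probe sets, 21789 name 1 gene, 1621 several and 5534 are unnamed here. Symbols were updated by gene ID to RefSeq (21698 matched). For 999 genes with several probe sets the brightest, by mean over all arrays, was used; each member has 1.

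The test was lmFit with eBayes from limma 3.58.1 under R 4.3.3, two-sided and without covariates, Benjamini-Hochberg adjusted over 19938 genes, with a threshold of 0.05; the procedure was tested on simulated data. The mice are the replicates, and the number of arrays limits precision: an exact permutation test of 3 against 3 cannot give a p below 0.1. Promoter windows are from RefSeq. The members and lists were chosen with earlier results of these data known. Named genes were all members, up to 3 called genes in each direction and the brightest not called of each function list, up to 3 called and the 2 brightest of the fibroblast, endothelial and platelet lists, and the 3 nearest to *Fn1* and *Sparc*; others are marked as named after their values were seen. Some listed genes were not analysed here. Alternatives changed the scaling, the handling of dim values and of several probe sets, and the variance model, weighted the arrays, added a replicate block or left out each array.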

Additional observations from a re-analysis of the deposited data

How the results depend on the processing

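Over the members, 4 were called higher and 0 lower. The count of 4 became 1 with values floored at the median intensity, 2 with 16 added before log2 and 2 with array weights, and 2 to 3 without any 1 array. The floor left the log2 fold changes of *Fn1*, *Postn* and *Sparc* at 2.52, 2.82 and 2.47, as in the main fit. Centring each array on the core macrophage markers gave 3 higher and 4 lower. It lowered every log2 fold change by the same amount and so moved the median of all genes to -1.25. *Fstl1*, *Fbln1* and *Serpinh1* turned to -0.30, -1.14 and -1.08 there. *Dcn* turned to 0.12 after quantile normalization, and its log2 fold change ran from -0.39 to 0.035 without any 1 array. Quantile normalization also raised *Fn1*, *Postn* and *Sparc* to 2.82, 3.11 and 2.97, and *Serpinh1* and *Pcolce* to 0.22 and 1.37. It lowered *Lum*, *Fstl1* and *Fbln1* to 1.40, 0.93 and 0.08. Under the 10 alternatives that keep all arrays, *Fstl1* was called in 10 (lower with macrophage centring), *Sparc* in 9, *Postn* in 7 and *Fn1* in 6.

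Over all genes, 1028 were higher and 946 lower. That became 365 and 401 with the floor, and 127 and 19517 with macrophage centring. Without any 1 array it was 271 to 1159 higher and 399 to 796 lower. Median centring gave 722 higher and 1195 lower. Of the function lists, 23 genes were higher and 5 lower, becoming 4 and 2 with the floor, 5 and 108 with macrophage centring and 11 higher with 16 added, and 3 to 24 higher and 2 to 4 lower without any 1 array.

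Samples of the 2 groups share replicate numbers. The deviations of same-numbered arrays from their group means correlated by 0.09, 0.087 and 0.019. Those of different-numbered arrays correlated by -0.085 to 0.008, all below the same-numbered values. All of these values were small, and the numbers were not taken as pairs. With the replicate block the counts were 611 genes higher, 12 function-list genes higher and 3 lower, and 3 members higher, *Fn1* losing its call (adjusted p = 0.077 from limma). *Postn* was called with the block at a limma adjusted p of 0.013, against 0.047 without it. The cause of these changes was not tested. Linear values near 6 with 1 decimal limit what can be read for *Fbln1*, *Fstl1* and the GCM levels of *Lum*.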
